A study of Homo sapiens with 6 samples.

Results

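The expressed G protein-coupled receptors (GPCRs) of A549 human lung adenocarcinoma cells were taken as the genes whose deposited annotation holds a Gene Ontology molecular function term for a G protein-coupled receptor activity and whose mean over the 6 libraries was at least 1 TPM, a measure of mRNA level that corrects the reads of a gene for its length and each library for its depth. The term was held by 790 of the 58676 genes in the table, of which 507 were listed at 0 in all 6 libraries and 283 were above 0 in at least 1 library, and 105 were selected on their mean TPM. Of these 105 genes, 95 were counted as receptors of this kind and 10 are not. The 95 include 4 membrane proteins of unsettled class. The levels that chose them are described without a test, and only the comparison between the groups, which the selection did not use, was tested. A549 MOCK (3 libraries) carried an empty plasmid, and A549 Rec (3 libraries) carried a plasmid with human cDNA of recoverin (RCVRN), a calcium-binding protein of the retina that inhibits rhodopsin kinase. Both were grown in 2D culture, for 6 days per the labels, whereas the study's methods have the cells collected a day later. The labels call the cells transfected, and the methods describe retroviral transduction and puromycin selection of A549 Rec with an empty vector in A549 MOCK. Nothing in the sources used here states whether the replicates came from separate transductions, clones or cultures, so that the p-values measure the spread between these libraries, which may be technical.

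GPCRs are membrane proteins that bind a ligand outside the cell and activate heterotrimeric G proteins inside it. Gs raises and Gi lowers cyclic AMP, Gq releases calcium through phospholipase C, and the G12 family acts on the small GTPase RhoA. Activated receptors are phosphorylated by GPCR kinases (GRKs), which permits arrestin binding and the end of the signal. In lung epithelium these receptors are known for responses to adenosine, bradykinin, proteases and lysophospholipids. The study used RNA sequencing to look for signaling mechanisms that differ with recoverin. GPCR signaling came first among the pathways it reported for its differentially expressed genes. The paper proposes that effects of recoverin on viability and drug sensitivity may run through GPCRs. An mRNA level does not measure receptor protein at the membrane.

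RCVRN was listed at 0 TPM in the 3 A549 MOCK libraries and at 322, 338 and 339 TPM in the 3 A549 Rec libraries (limma, Benjamini-Hochberg adjusted p 5.82e-08), which matched the labels. In these bulk samples, fewer cells expressing a gene and less mRNA per cell cannot be told apart. The reads recovered from the TPM ranged from 15187472 to 18577350 per library. Genes encoded by mitochondrial DNA held 34.5% of the TPM in A549 MOCK replicate 3 and 26.9% in A549 Rec replicate 3, against 13.3% to 17.3% in the other 4 libraries, and the replicate 3 libraries thus stood apart in both groups. Of 7 epithelial markers 6 reached a mean of 1 TPM, whereas this was so for 3 of 9 markers of lung adenocarcinoma and alveolar type II cells, 2 of 8 leukocyte markers, 1 of 6 fibroblast markers and 0 of 5 endothelial markers.

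**Figure D1:**
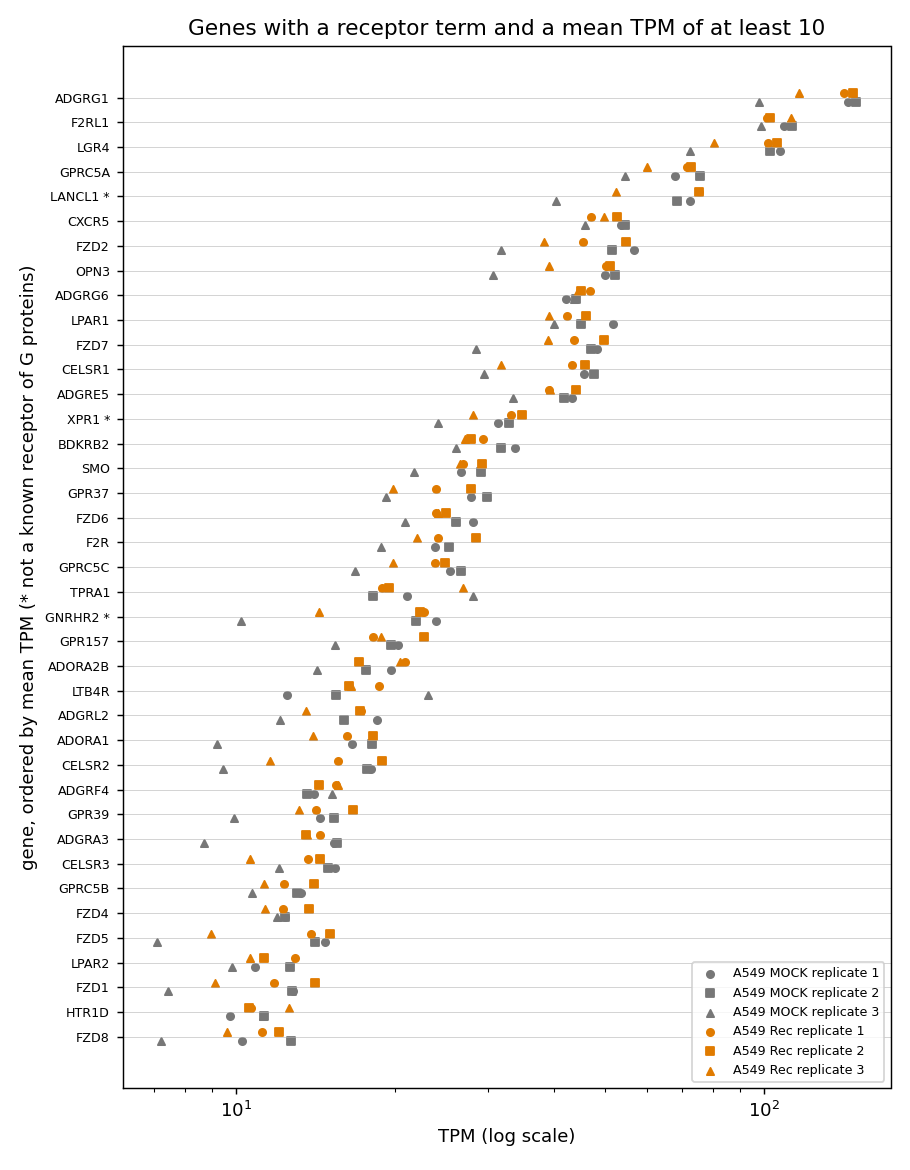
TPM on a log scale in each of the 6 libraries for 39 of the 40 genes with a mean of at least 10 TPM, ordered by mean, with A549 MOCK in grey and A549 Rec in orange, a marker shape for each replicate number, and an asterisk for genes that were not counted as receptors of G proteins. The triangles of replicate 3 lie to the left in most rows, and grey and orange points of the same replicate lie close to each other.

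The receptors were expressed at low to moderate levels. A mean of at least 100 TPM was reached by 3 of the 105 genes, 37 lay between 10 and 100 TPM and 65 lay between 1 and 10 TPM, with a median of 6.96 TPM. All 6 libraries were at or above 1 TPM for 94 genes. Together the 95 receptors summed to 1409 TPM, of which the 10 with the highest level held 47.9%. Among the genes that carry the term without being GPCRs, LANCL1, a glutathione-binding protein, had 64.0 TPM and XPR1, a phosphate exporter, had 30.7 TPM. Lower ones were GNRHR2 (a pseudogene), the natriuretic peptide receptors NPR1 and NPR3, the fatty acid elongase ELOVL4, the cone transducin subunit GNAT2, TM2D1 and AJ003147.2, an unnamed gene.

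Adhesion receptors, which have long extracellular domains that contact neighbouring cells or matrix, held the largest share of receptor mRNA, with 18 genes and 369 TPM (26.2%). ADGRG1 (GPR56), which couples to the G12 family and binds transglutaminase 2 and collagen III, was measured at 144, 149 and 98.1 TPM in A549 MOCK and at 142, 147 and 117 TPM in A549 Rec (chr16:57610652-57665580). It was the highest of the 95 receptors, and its lowest value in each group was that of replicate 3. ADGRG6 (GPR126), a collagen IV receptor that raises cyclic AMP, had 42.2, 44.1 and 43.7 TPM in A549 MOCK and 46.8, 45.1 and 44.5 TPM in A549 Rec. The groups did not overlap for ADGRG6, although they lay within a narrow range. CELSR1, a cadherin of planar cell polarity, had a mean of 40.6 TPM, and ADGRE5 (CD97), which binds CD55, had 40.2 TPM. The other planar polarity cadherins CELSR2 and CELSR3 had 15.2 and 13.5 TPM, and the latrophilins ADGRL2, ADGRL1 and ADGRL3 had 15.8, 9.96 and 1.36 TPM.

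The Frizzled class, comprising the WNT receptors and the hedgehog transducer SMO, came next with 10 genes and 192 TPM (13.6%). FZD2 had 56.8, 51.6 and 31.7 TPM in A549 MOCK and 45.3, 54.7 and 38.4 TPM in A549 Rec. FZD2 was lowest in replicate 3 of each group, as were 57 of the 105 members. FZD7 followed with a mean of 42.7 TPM, SMO with 26.7 TPM and FZD6 with 24.7 TPM. Of the Frizzled genes, FZD10 alone stayed below the threshold, at 0.0812 TPM. LGR4, which binds R-spondins and strengthens WNT signaling, had 108, 103 and 72.3 TPM in A549 MOCK and 102, 106 and 80.3 TPM in A549 Rec (chr11:27365961-27472775). Its relatives LGR5 and LGR6, known as stem cell markers, were at 0.158 and 0.207 TPM.

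Protease-activated receptors, which are switched on by cleavage of their own N-terminus, summed to 132 TPM (9.33%). F2RL1 (PAR2), the receptor cleaved by trypsin-like proteases, was measured at 109, 113 and 98.8 TPM in A549 MOCK and at 101, 103 and 113 TPM in A549 Rec (chr5:76818933-76835315). In A549 Rec, replicate 3 was the highest of its group, unlike for ADGRG1 and LGR4. The thrombin receptor F2R (PAR1) had a mean of 23.7 TPM and F2RL2 (PAR3) 1.45 TPM, whereas F2RL3 (PAR4) was listed at 0 in all 6 libraries.

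Class C receptors were represented by the orphan retinoic acid-induced genes, with GPRC5A at 67.1, GPRC5C at 22.9 and GPRC5B at 12.4 TPM. GPRC5A, known as a lung tumour suppressor gene in mice, had 67.9, 75.8 and 54.6 TPM in A549 MOCK and 71.5, 72.8 and 60.01 TPM in A549 Rec. The ranges of GPRC5A overlapped. Among 16 orphan receptors summing to 83.7 TPM, GPR37 was highest with 24.7 TPM, followed by the zinc-sensing GPR39 with 13.9 TPM and GPR27 with 6.15 TPM.

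Among the lipid receptors (9 genes, 93.1 TPM), LPAR1, the main receptor of lysophosphatidic acid, had 51.7, 44.9 and 40.1 TPM in A549 MOCK and 42.4, 46.0 and 39.1 TPM in A549 Rec. Its groups overlapped, and LPAR2 had a mean of 11.4 TPM. The leukotriene B4 receptor LTB4R had 17.1 TPM and LTB4R2 8.09 TPM, and 4 receptors of sphingosine 1-phosphate lay between 2.098 (S1PR5) and 3.02 TPM (S1PR3). Adenosine receptors led the nucleotide class (6 genes, 55.3 TPM), with the Gs-coupled ADORA2B at 18.3 TPM and the Gi-coupled ADORA1 at 15.4 TPM, which act on cyclic AMP in opposite directions. The ATP receptor P2RY11 followed with 6.96 TPM.

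Receptors of the classical transmitters and hormones were fewer and lower. The amine class held 5 genes and 43.8 TPM, namely the serotonin receptor HTR1D (11.02 TPM), the adrenergic receptors ADRA2C (9.94), ADRA1D (9.76) and ADRA1B (6.39) and the histamine receptor HRH1 (6.70), all in TPM. Peptide receptors summed to 46.8 TPM, mostly BDKRB2, the constitutive bradykinin receptor, whose relative BDKRB1 had 3.96 TPM, and the orexin receptor HCRTR1 had 8.10 and the melanocortin receptor MC1R 5.43 TPM. The class B hormone receptors GIPR and GLP2R, of the incretin hormone GIP and of glucagon-like peptide 2, had 8.49 and 8.02 TPM, and PTH1R had 1.02 TPM. Chemokine receptors were CXCR5 (50.6 TPM), CCR10 (3.80) and CCR7 (3.48). The opsins OPN3 and OPN1SW, members of the light receptor family, had 45.5 and 7.48 TPM. FPR1, a receptor of formyl peptides and annexin A1, had 9.98 TPM, the complement receptor C5AR1 3.37 and C3AR1 1.45 TPM. Of the 414 annotated olfactory receptors, 38 were above 0 and 4 reached 1 TPM, led by OR51B4 (2.38 TPM), OR1F1 (2.19 TPM) and OR51B5 (1.43 TPM), and of 24 bitter taste receptors 3 were above 0 and 0 reached it. Finally, 4 membrane proteins of unsettled class included TPRA1 (22.1 TPM), GPR157 (19.2 TPM) and TMEM116 (3.42 TPM).

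**Figure D2:**
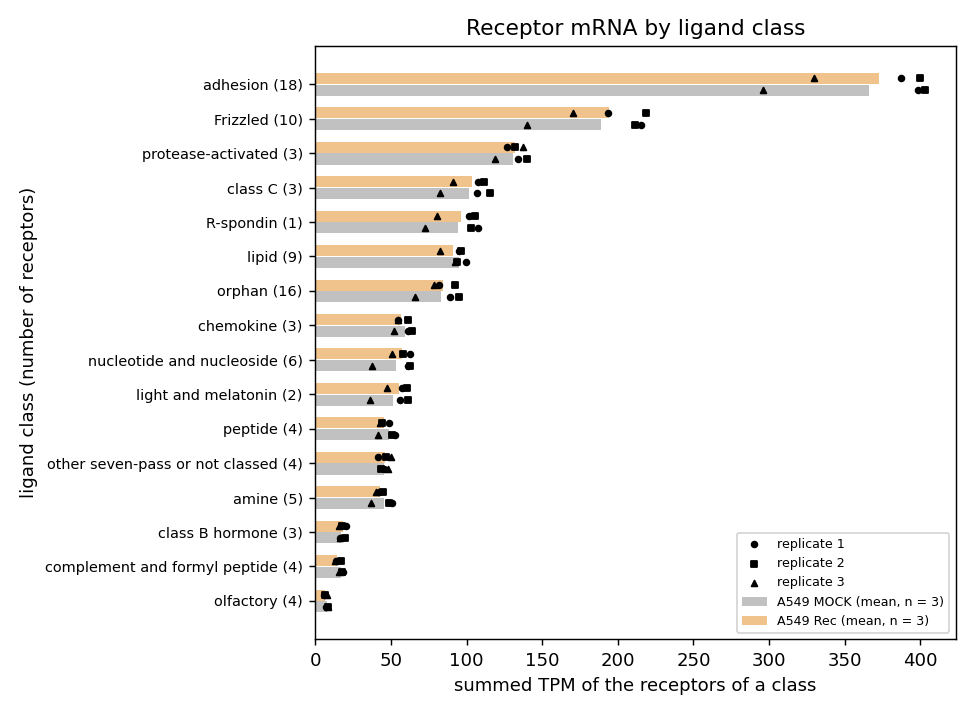
Summed TPM of the receptors of each ligand class, with bars for the mean of A549 MOCK (grey) and A549 Rec (orange), n = 3 each, and points for the 3 libraries, the number of receptors standing in parentheses. The adhesion and Frizzled classes are the highest, and the points of the 2 groups overlap in every class. The bar of A549 Rec is the lower one in the lipid, chemokine, peptide, amine, complement and formyl peptide, and olfactory classes, and the higher one in the others.

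By their main G protein, known from textbook pharmacology, 15 receptors couple to Gi and summed to 172 TPM, 8 couple to Gs with 95.7 TPM and 10 to Gq with 80.6 TPM. A further 8 use several G proteins and summed to 200 TPM, mostly F2RL1, LPAR1 and F2R. ADGRG1 was the sole one assigned mainly to the G12 family, and the Frizzled genes without SMO, with LGR4, act chiefly through WNT signaling and held 260 TPM. For 39 receptors with 461 TPM no coupling was assigned here, and the sums by G protein leave them out. The highest Gi-coupled gene was CXCR5, the highest Gs-coupled one ADGRG6 and the highest Gq-coupled one BDKRB2. CXCR5 held 50.6 TPM of the Gi sum and of the 57.8 TPM of the chemokine class. Its level is uncertain, since 91.1% of its exon bases are shared with BCL9L. These sums compare TPM, which is scaled for gene length, but not receptor number at the membrane.

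Several levels rest on exons shared with other genes. Of the 104 members found in GENCODE v44, 34 share exon bases with another gene of at least 1 TPM, and 10 share at least 25% of their exon bases with such genes. P2RY11 shares 53.6% with PPAN-P2RY11 on the same strand, an overlap left out of these counts because that gene was listed at 0 TPM. CXCR5, known as a receptor of B cells, shares 91.1% of its exon bases with BCL9L on the opposite strand, which had 97.9 TPM, so that reads of both could not be told apart unless the counting used strand. The labels name a directional library kit and the study's methods also a further kit, and the strand setting of the counting was not given in the sources used here. The overlap was 58.9% for LTB4R2, with CIDEB, NOP9 and LTB4R, and 58.5% for OPN3, with KMO and CHML. For GPR146 it was 49.8%, for GPR39 37.6%, for P2RY2 37.5%, for CCR10 34.4%, for MC1R 30.4%, for GNRHR2 27.9% and for GPRC5B 26.7%. ADGRE2 and ADGRE5 share a stretch of 959 bases at 96.7% identity, and ADGRA3 shares 1449 bases at 97.3% with its pseudogene ADGRA3P1, and the split of their reads is therefore uncertain.

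**Figure D3:**
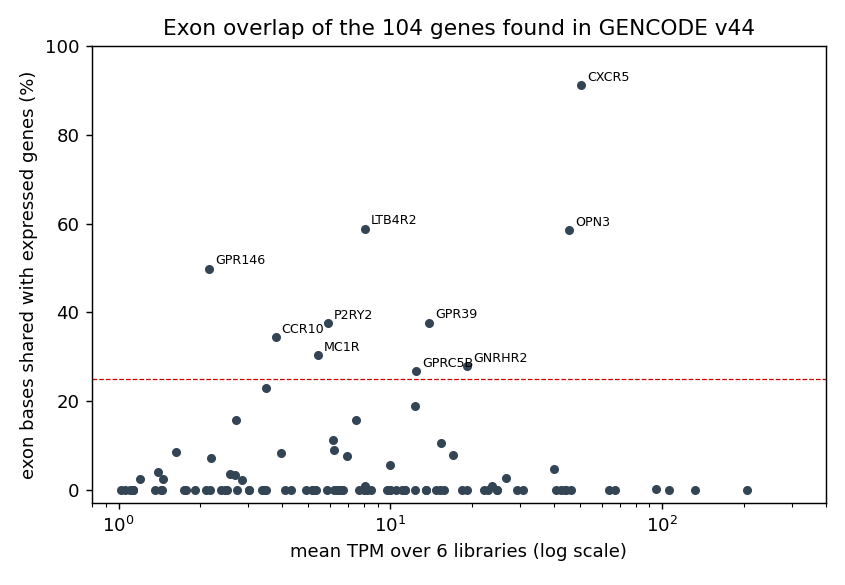
Share of a member's exon bases that also lie in exons of other genes of at least 1 TPM, against its mean TPM on a log scale, for the 104 members found in GENCODE v44, with a dashed line at 25%. CXCR5 and OPN3 combine a level above 45 TPM with a shared part of over 58%, whereas most members lie near 0%.

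At the threshold, PTH1R (1.02), FPR2 (1.06), GPR143 (1.10), OR2B6 (1.13) and GPR63 (1.13) lay just inside, and FFAR2 (0.981), HTR1B (0.949), HTR6 (0.947), AGTR1 (0.929) and OXTR (0.885) just outside, as mean TPM. OR2B6 rested on 1 to 11 reads per library, the least of all members. The annotation also left out receptors, since 18 genes of a list of 379 receptors reached 1 TPM without holding the term. Among them were the neuropeptide Y receptor NPY1R (9.36 TPM), the prostaglandin E2 receptors PTGER2 (4.16 TPM) and PTGER4 (1.53 TPM) and the scavenging chemokine receptors ACKR4 (3.602 TPM) and ACKR3 (1.34 TPM). These are among 10 receptors with an assigned ligand class, and the other 8 genes were membrane proteins of unsettled class, led by GPR108 with 69.1 TPM.

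The study named receptors associated with caveolin, the coat protein of caveolae, and of these BDKRB2 alone was a member. It had 33.8, 31.7 and 26.1 TPM in A549 MOCK and 29.4, 27.9 and 27.2 TPM in A549 Rec (980 to 1164 reads). The 2 highest values were those of A549 MOCK replicates 1 and 2, and the ranges overlapped. EDNRA and AGTR1, the receptors of endothelin and angiotensin II, had means of 0.966 and 0.929 TPM and rested on 11 to 37 reads per library. CHRM2, CCKAR and CCKBR had 0 reads in all 6 libraries.

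Because CREB, the factor activated through cyclic AMP, binds the cyclic AMP response element, the letters TGACGTCA were searched on both strands in the 250 bases before the start of each gene. RefSeq windows on GRCh38.p14 were matched by symbol for 76 of the 105 members. The element was in 2 of them (2.63%), as compared with 555 of 27305 genes (2.03%), and both are shown, since they are the members with this element, in lower case with the element in capitals and each read 5′ to 3′ on its gene's strand.
GPR3 (chr1:27392536-27392621, plus strand): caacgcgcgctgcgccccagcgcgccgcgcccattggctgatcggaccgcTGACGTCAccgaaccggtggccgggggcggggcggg
S1PR2 (chr19:10231524-10231581, minus strand): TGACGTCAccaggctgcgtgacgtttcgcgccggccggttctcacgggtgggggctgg
The element starts 36 bases before the start of GPR3 and 250 bases before that of S1PR2. GPR3, a Gs-coupled orphan with constitutive activity, had 5.26, 5.57 and 3.88 TPM in A549 MOCK and 3.98, 5.66 and 5.11 TPM in A549 Rec. S1PR2 had 3.87, 3.29 and 2.30 TPM in A549 MOCK and 2.36, 3.10 and 2.24 TPM in A549 Rec. Both pairs of ranges overlapped, and a match of these letters does not show binding.

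A549 Rec was then compared with A549 MOCK by limma on log2(TPM + 1), a scale that understates changes of low genes. All 105 members were among the 17408 genes tested, and 0 passed an adjusted p under 0.05 with a change of at least 2-fold, against 0.00574% of all genes tested, which was RCVRN alone. The study, with a test on read counts (DESeq2), reported more differentially expressed genes at this adjusted p and fold change. The smallest Benjamini-Hochberg adjusted p of a member was 0.9997. Without adjustment 0 of the 105 had a p under 0.05, where 2.06% of all genes tested did. With the replicate number as a block this was 1 of 105, OR1F1, where 4.11% of all genes did, and with limma-voom on the recovered reads and the block it was 6 of 105, where 4.86% did. The share of members was thus below the background with the block and near it with limma-voom and the block.

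The median log2 difference was 0.02, as was that of all genes tested, with 62 members above 0 and 43 below. The direction of this median is not settled, since it was −0.01 after rescaling without mitochondrially encoded genes, with 47 members above 0 and 58 below, and −0.03 without both replicate 3 libraries, with 42 above and 63 below. Without A549 MOCK replicate 3 alone, 28 members lay above 0 and 77 below. On the log2(TPM + 1) scale the single differences ranged from −0.58 for OR2B6 to 0.33 for OR51B4. As this scale compresses low values, OR2B6 had −1.14 and FPR2 −1.14 with a pseudocount of 0.1, and −1.09 and −1.26 with limma-voom on the recovered reads. For OR2B6 the mean TPM was 1.55 ± 0.799 (A549 MOCK) against 0.704 ± 0.538 (A549 Rec), and for FPR2 it was 1.44 ± 0.452 against 0.678 ± 0.422 (SD, n = 3). The 95% interval of the difference lay within 2-fold either way for 102 of the 105 members, where 88.5% of all genes tested did so. The other 3 were OR2B6, FPR2 and OR1F1. This limit holds on the log2(TPM + 1) scale, on which a 2-fold change of a low TPM is less than 1 unit, and with a pseudocount of 0.1 it held for 89 members, where 79.6% of all genes did, and with limma-voom for 95, where 80.2% did. For the 40 members of at least 10 TPM, the differences lay between −0.13 and 0.19, and 30 of their 40 intervals lay within 1.5-fold.

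**Figure D4:**
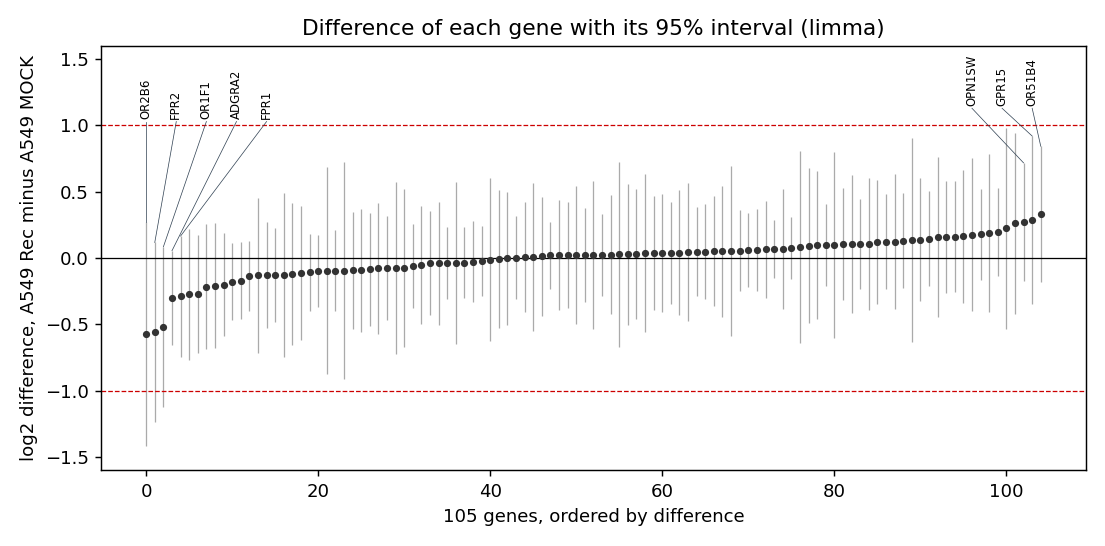
Log2 difference of A549 Rec minus A549 MOCK on the log2(TPM + 1) scale for the 105 members, ordered by its value, with 95% intervals from limma (3 libraries per group) and dashed lines at 2-fold. All intervals cross 0, and those of OR2B6, FPR2 and OR1F1 reach below the lower dashed line.

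For the highest receptors the difference on the log2 scale was 0.07 for ADGRG1 (95% interval −0.38 to 0.52), −0.02 for F2RL1 (−0.28 to 0.24) and 0.04 for LGR4 (−0.41 to 0.48). It was 0.05 for GPRC5A (−0.31 to 0.41), −0.04 for CXCR5 (−0.31 to 0.23), −0.09 for LPAR1 (−0.40 to 0.21) and −0.11 for BDKRB2 (−0.40 to 0.18). By class, the median difference was 0.06 for the Frizzled class, 0.04 for the adhesion class, 0.12 for the nucleotide class and −0.05 for the lipid class, where 7 of 10, 11 of 18, 4 of 6 and 4 of 9 genes lay above 0. It was −0.10 for both the amine class (1 of 5 above 0) and the peptide class (1 of 4), −0.04 for the chemokine class (0 of 3), −0.13 for the complement and formyl peptide class (2 of 4) and −0.24 for the olfactory class (2 of 4). For the remaining classes it was 0.03 among the orphans (11 of 16), 0.03 in class C (3 of 3), 0.02 in class B (2 of 3), 0.13 for the protease-activated receptors (2 of 3) and 0.19 for the opsins (2 of 2). By coupling, 6 of 8 Gs-coupled, 7 of 15 Gi-coupled and 3 of 10 Gq-coupled receptors lay above 0. None of these counts was tested, since the genes of a class are not replicates. They were taken on TPM without rescaling, and such signs moved with the scaling. Of all 105 members 62 lay above 0 here. After rescaling without mitochondrially encoded genes 47 did, and without A549 MOCK replicate 3 it was 28.

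Ranges that did not overlap were found for 6 members. The lowest value in A549 Rec exceeded the highest in A549 MOCK for 1 of 105 (ADGRG6), where 2.47% of all genes tested did so, and the reverse held for 5 of 105 (HRH1, ADGRG2, ADGRA2, GPR135 and FPR2), where 2.69% did. An exact permutation test (two-sided) gave p = 0.1 for each, which is the smallest that 3 libraries against 3 allow. Ranges that do not overlap always give this value, so that it adds nothing to the way these genes were picked. ADGRA2 (GPR124), a WNT7 co-receptor, had 3.85, 4.66 and 3.38 TPM in A549 MOCK and 2.92, 3.17 and 2.93 TPM in A549 Rec. It shares 23.0% of its exon bases with BRF2 (8.32 TPM) on the opposite strand. HRH1, the Gq-coupled histamine receptor, had 7.41, 7.14 and 6.94 TPM in A549 MOCK and 6.46, 5.40 and 6.88 TPM in A549 Rec. In ADGRA2 and HRH1 the nearest libraries of the 2 groups differed by less than the range within a group.

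The formyl peptide receptors FPR1 and FPR2, whose listed spans overlap on chromosome 19, had lower means in A549 Rec. Their relative FPR3 was listed at 0 TPM in every library. FPR1 (chr19:51745172-51804110) had 12.6, 12.7 and 8.17 TPM in A549 MOCK and 8.34, 10.5 and 7.68 TPM in A549 Rec. Within each replicate number A549 Rec was lower for FPR1. This held for 16 of the 105 members and the reverse for 12, and the share over all genes tested was not counted. FPR2 (chr19:51752026-51770526) had 1.93, 1.04 and 1.35 TPM in A549 MOCK and 0.812, 1.02 and 0.205 TPM in A549 Rec, from 4 to 36 reads per library. The log2 difference was −0.29 for FPR1 (95% interval −0.75 to 0.17) and −0.56 for FPR2 (−1.23 to 0.12), and neither passed the test. Without both replicate 3 libraries it was −0.39 for FPR1, −0.36 for FPR2 and −0.19 for BDKRB2, again with 0 calls. OR1F1 had 3.58, 1.72 and 3.03 TPM in A549 MOCK and 1.70, 1.09 and 2.01 TPM in A549 Rec, from 6 to 17 reads. Its difference of −0.52 had an unadjusted limma p of 0.0816 without and 0.0335 with the block, and the smallest adjusted p of a member with the block was 0.998. The 6 members under an unadjusted p of 0.05 with limma-voom and the block were LANCL1, which was higher, and BDKRB2, CELSR3, FPR1, ADGRA2 and FPR2, which were lower, with a smallest adjusted p of 0.934.

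The replicate 3 libraries differed from the others more than the groups did. The mean of the replicate 3 libraries over that of the other 4 had a median of 0.813 over the members and of 0.863 over all genes tested, and 87 of 105 members were below 1. After rescaling without mitochondrially encoded genes the median was 1.01 over the members and 1.06 over the genes tested, and 52 members were below 1. The spread within a group, as the coefficient of variation, had a median of 13.8% for members of at least 10 TPM and of 8.64% after this rescaling. For members of 1 to 10 TPM it was 19.0% before and 18.4% after it. S1PR5 was among the lowest, at a ratio of 0.414, with 1.14 and 1.01 TPM in the replicate 3 libraries and 2.01 to 3.47 TPM in the others. TPRA1 went the other way at 1.42, with 28.0 and 26.9 TPM against 18.2 to 21.0 TPM. The part of the mitochondrial share or of the sequencing run in this was not tested.

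Genes for ligands and partners of the receptors were described from lists of symbols. None of the tested genes of the 7 lists passed the adjusted test or an unadjusted p under 0.05. Of the peptide and protein ligands 18 of 63 were tested, led by ANXA1 (1165 TPM), the FPR ligand, C3 (423 TPM), the source of the C3AR1 ligand, and NMB (67.5 TPM), whose receptor NMBR was at 0.0601 TPM. Of the chemokines 10 of 35 were tested, led by CXCL5 (3231 TPM), CXCL1 (1326 TPM) and CXCL2 (191 TPM), while their receptor genes stood at 0.00919 TPM for CXCR2 and 0 for CXCR1. Neutrophil chemokine mRNA was thus present at high levels next to nearly no mRNA of its receptors. Of the WNT, R-spondin and hedgehog ligands 8 of 27 were tested, led by RSPO3 (170 TPM), the ligand of LGR4, WNT7B (19.0 TPM) and SHH (9.05 TPM), the hedgehog ligand upstream of SMO.

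Of the enzymes of lipid and nucleotide ligands 17 of 20 were tested, led by PTGES (587 TPM) and PTGS2 (306 TPM), which make prostaglandin E2, and HPGD (84.4 TPM), which degrades it. Of the proteases 5 of 11 were tested, led by PLAU (223 TPM), and F2, the precursor of thrombin, had 10.7 TPM and PRSS3, a trypsin, 4.87 TPM. Of the adhesion receptor partners 7 of 11 were tested, led by TGM2 (953 TPM), a binding partner of ADGRG1, COL4A1 (74.9 TPM), of ADGRG6, and CD55 (64.3 TPM), of ADGRE5. Of the receptor partners and trafficking genes 16 of 28 were tested, led by the WNT co-receptor LRP5 (136 TPM) and the scaffolds SLC9A3R1 (124 TPM) and GIPC1 (105 TPM). With the replicate block an unadjusted p under 0.05 was reached by C5 and CXCL16, which were higher in A549 Rec, and by CXCL8 and PTGS2, which were lower. These were 4 of the 81 list genes tested (4.94%), near the 4.11% of all genes tested with the block. CXCL8 had 128, 129 and 349 TPM in A549 MOCK and 109, 117 and 297 TPM in A549 Rec, and PTGS2 had 231, 227 and 521 TPM in A549 MOCK and 193, 201 and 461 TPM in A549 Rec. In both genes the replicate 3 libraries were the highest of their group, and the gap between replicates exceeded that between groups.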

How the data were processed

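RNA sequencing of 2D-cultured A549 MOCK and A549 Rec (3 libraries each) was used. The authors trimmed reads (Trimmomatic 0.38), mapped them (HISAT2 2.1.0), counted them per gene (featureCounts 1.6.3) and deposited TPM. The paper names GRCh38, whereas the submitters' processing notes name GRCm38 and mm10, and the identifiers and coordinates in the file are human. Annotation release and strand setting are not given in the sources used here, nor which library ran on which of the sequencers named.

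The 17408 genes that reached 1 TPM in 3 or more of the 6 libraries were tested on log2(TPM + 1) with limma 3.58.1 in R 4.3.3 (trend, Benjamini-Hochberg adjusted p), and a call needed an adjusted p under 0.05 and 2-fold. Whole reads (tolerance 0.01) were recovered from the TPM for 29899 of 29900 detected genes, with lengths equal to GENCODE v44 for 14535, and intervals for reads cover counting error only. With numbers from the labels' descriptions, same-numbered libraries had deviations correlated at 0.115, 0.164 and 0.342 over genes, each over 0.1, so a replicate block was added. Other pairs lay between −0.234 and 0.128, and A549 MOCK replicate 1 was nearest to A549 Rec replicate 2 (0.128), so that mainly replicate 3 was set apart.

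Named genes were RCVRN, the 20 highest members, the 3 highest per class or list, members with an unadjusted p under 0.05, the 5 nearest either side of the threshold and the caveolin-listed receptors. GRCh38 positions are those of the file. Others were named after their values were seen, and some that the rule names are not reported here. Members, classes and lists were chosen with earlier results of these data known. Alternatives covered pseudocount, filter, scaling, pairing, voom on recovered reads, trend and left-out libraries. Both voom fits left mitochondrially encoded genes out of the test and of the library sizes, so that they changed test and scaling together.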

Additional observations from a re-analysis of the deposited data

How the results depend on the processing

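The count of called members was 0 under all 15 alternatives, and RCVRN stayed called. The number of the 105 members with an unadjusted p under 0.05, 0 as reported, was 2 after rescaling without mitochondrially encoded genes (FPR1 and ADGRA2), where 2.53% of all genes tested had one. It was 1 with the replicate block (OR1F1; all genes 4.11%), 2 with voom on recovered reads (ADGRA2 and FPR2; 1.77%), 2 without both replicate 3 libraries (BDKRB2 and FPR1; 5.67%) and 0 to 3 without each library in turn. With voom and the replicate block, an alternative chosen after seeing the data, it was 6 (4.86%), of which 5 are receptors and 1 (LANCL1) is not. Without A549 MOCK replicate 3 it was 3 (BDKRB2, FPR1 and ADGRA2; 3.71%), without A549 MOCK replicate 2 it was 3 (OPN1SW, OR51B4 and OR1F1; 2.17%) and without A549 MOCK replicate 1 it was 1 (OR2B6; 2.1%). The cause was not tested. The replicate block changed no other call. The median log2 difference of the 105 members lay between −0.12 and 0.08 over these alternatives, against a spread between replicates of 0.18. Of 1575 values of single members under an alternative, 204 had the other sign and 16 moved by more than the spread between replicates. The filter, the trend and the replicate block cannot change the difference itself, so that their values could add to neither count. Rescaling without mitochondrially encoded genes left 112 genes at the threshold in place of 105. Depth limits the lowest members, since OR2B6 had 1 read in a library.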
